A study of Caenorhabditis elegans with 2 samples.

Results

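Regions bound by the tagged mRNA export adaptor ALY-2 were examined at the genes for cytosolic ribosomal proteins of Caenorhabditis elegans. The genes were taken by name from the Ensembl annotation of WBcel235, as protein-coding genes called rpl- or rps- followed by a digit. There were 78 of them among 19973 nuclear protein-coding genes, 47 for the large subunit (rpl) and 31 for the small subunit (rps). Chromatin immunoprecipitation and sequencing (ChIP-seq) had been done on whole L3 larvae of mixed sex. Both biological replicates were of strain OP217, with genotype unc-119(ed3) III; ddIs172, which carries an eGFP-tagged aly-2 insertion. The antibody is labelled aly-2, the age of the worms is labelled unknown, and the sources used here do not give the promoter of the insertion. All tissues are mixed in a whole larva. No control group was analysed here, so values are compared between genes, between gene ends and between replicates.

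Each ribosome holds one copy of nearly every ribosomal protein, and a growing larva makes these proteins in large amounts from short, highly transcribed genes. The small subunit decodes the mRNA, and the large subunit forms the peptide bonds. Proteins of the Aly/REF family bind new mRNAs and hand them to the nuclear export receptor, and they are recruited to genes during transcription. Roles of single ribosomal proteins are given as known from yeast and mammalian ribosomes. Many worm mRNAs, including those of ribosomal proteins, receive a spliced leader at their 5′ end, so the annotated 5′ end of such a gene can be a trans-splice site that lies downstream of the point where transcription starts.

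The sequences under optimal peaks at 5′ ends are shown because several of them share short words. Shown are 101 bases of ce11 centred on the pooled summit, on the strand of the gene, for 8 of the 12 genes whose 5′ peak passed the authors' reproducibility threshold, in order of height, credited to the RefSeq copy of WBcel235. The windows are chrIII:3867512-3867612 for rpl-3, chrIV:4750004-4750104 for rpl-20 (minus strand), chrIII:7854638-7854738 for rpl-35, chrIII:4475589-4475689 for rps-1, chrIV:654859-654959 for rpl-15 (minus strand), chrIV:13240666-13240766 for rpl-12 (minus strand), chrIII:1950339-1950439 for rps-22 and chrX:2242979-2243079 for rpl-11.2 (minus strand). The windows of rps-20, rpl-24.2, rpl-13 and rpl-1 are not printed here. None of the printed windows overlaps a protein-coding gene. Capitals mark TACGGT, or a match to the word GGAGCG, or to the word GAGTGT, or to the word AGTGTA, each on either strand. The words GAGTGT and AGTGTA can overlap each other.
rpl-3 5′ summit: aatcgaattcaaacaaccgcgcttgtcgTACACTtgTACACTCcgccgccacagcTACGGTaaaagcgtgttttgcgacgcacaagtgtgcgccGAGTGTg
rpl-20 5′ summit: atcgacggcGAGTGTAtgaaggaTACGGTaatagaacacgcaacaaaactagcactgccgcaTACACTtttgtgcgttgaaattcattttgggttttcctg
rpl-35 5′ summit: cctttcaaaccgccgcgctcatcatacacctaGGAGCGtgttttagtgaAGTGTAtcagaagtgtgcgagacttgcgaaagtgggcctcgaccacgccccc
rps-1 5′ summit: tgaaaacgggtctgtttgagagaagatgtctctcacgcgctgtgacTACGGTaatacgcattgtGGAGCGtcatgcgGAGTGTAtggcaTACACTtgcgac
rpl-15 5′ summit: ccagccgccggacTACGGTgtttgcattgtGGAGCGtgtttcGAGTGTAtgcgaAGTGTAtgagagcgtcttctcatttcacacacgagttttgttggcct
rpl-12 5′ summit: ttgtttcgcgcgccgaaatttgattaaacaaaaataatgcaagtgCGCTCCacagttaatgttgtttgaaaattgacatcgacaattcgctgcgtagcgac
rps-22 5′ summit: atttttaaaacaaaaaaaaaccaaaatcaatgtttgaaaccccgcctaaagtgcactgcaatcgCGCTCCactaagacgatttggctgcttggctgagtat
rpl-11.2 5′ summit: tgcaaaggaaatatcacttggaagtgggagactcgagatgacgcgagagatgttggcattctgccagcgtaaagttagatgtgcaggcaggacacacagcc

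These 4 words were chosen from the windows themselves, so their counts at the same peaks describe the choice. Each was in at least 5 of the 12 windows at optimal 5′ peaks of ribosomal protein genes and in under 5% of all pooled windows. GGAGCG was in 6 of the 12, those of rpl-1, rpl-12, rpl-15, rpl-35, rps-1 and rps-22. TACGGT was in 5, those of rpl-3, rpl-15, rpl-20, rps-1 and rps-20. The windows of rpl-15 and rps-1 held all 4 words, and those of rpl-11.2 and rpl-13 held none. At least 1 of the words was in 10 of the 12 windows (83.3%), in 18.5% of the 368 optimal windows and in 9.59% of the 17335 pooled windows. It was in 6 of the 39 windows of lower 5′ regions of ribosomal protein genes (15.4%), and in 1 of the 57 windows at their 3′ ends (1.75%).

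The genes whose 5′ peaks were not used in choosing the words give a separate view. In the 500 bases before the annotated 5′ end, TACGGT was found on either strand in 28 of the 66 ribosomal protein genes without an optimal 5′ peak (42.4%) and in 13.9% of all protein-coding genes. By subunit, of these 66 genes it was in 19 of 38 rpl genes and 9 of 28 rps genes. GAGTGT was in 18 of the 66 genes (27.3%) and in 15.7% of all genes, and GGAGCG was in 8 of the 66 (12.1%) and in 8.06% of all genes. AGTGTA was in 4 of the 66 (6.06%) and in 17.7% of all genes. TACGGT was thus found near ribosomal protein genes with and without an optimal 5′ peak, and AGTGTA in a smaller share of those without one than of all genes. A match describes these letters only. The shares were not tested, and divergent neighbours share part of these bases.

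For comparison, 2 of the 9 optimal summits beyond 3′ ends are shown on the strand of the gene. Their windows also overlap no protein-coding gene, but they are not the only such windows. The windows at rps-6 and rpl-31, for example, are not printed here. The 2 printed windows are chrX:2241521-2241621 for rpl-11.2 and chrIV:7925145-7925245 for rps-2, both minus strand, and hold none of the 4 words.
rpl-11.2 3′ summit: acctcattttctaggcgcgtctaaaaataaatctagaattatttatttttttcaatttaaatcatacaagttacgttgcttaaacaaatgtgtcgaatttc
rps-2 3′ summit: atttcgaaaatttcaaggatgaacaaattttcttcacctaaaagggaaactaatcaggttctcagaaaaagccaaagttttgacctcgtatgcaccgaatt

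The windows of optimal 5′ peaks were richer in G and C than those of optimal 3′ peaks. The median G and C content was 49.0% at the 12 optimal 5′ peaks (range 33.7 to 55.5%) and 35.6% at the 9 optimal 3′ peaks (26.7 to 48.5%). It was 40.1% at all 368 optimal peaks and 31.7% at all pooled regions. Over pooled regions of any height at ribosomal protein genes the medians were closer and the ranges overlapped widely. They were 42.6% in 51 5′ windows (21.8 to 60.4%) and 37.6% in 57 3′ windows (21.8 to 64.4%). Of the general promoter words, TTTCAG, which resembles the trans-splice acceptor, lay on either strand between 250 bases before and 50 after the 5′ end in 54 of 78 ribosomal protein genes (69.2%) and in 51.7% of all genes. TATAAA, the core of the TATA box, was in 21 of 78 (26.9%) and in 37.9% of all genes. GAGAGA was in 17 of 78 (21.8%), the same share as over all genes (21.8%), and GCGCGC in 4 of 78 (5.13%, against 3.58%).

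ALY-2 regions were listed near most ribosomal protein genes, and at both ends about equally often. The authors' pooled list holds 17335 regions, from peaks to background, each with a deposited signal value that is here called its height, and rank 1 is the highest. A region counts for a gene end when its summit lies within 500 bp of it, and a gene without one is at a place that was not listed, which is not a height of 0. At the 5′ end 54 of 78 ribosomal protein genes had a pooled region (69.2%), beside 19.4% of all protein-coding genes. At the 3′ end 57 of 78 had one (73.1%), beside 26.1% of all genes. Both ends had one in 44 genes (56.4%, beside 7.7% of all genes), and neither end in 11 (14.1%, beside 62.2%). In replicate 1 the counts were 53 at 5′ ends (all genes 29.8%) and 57 at 3′ ends (36.0%), and in replicate 2 they were 58 (27.2%) and 63 (33.6%). All 3 lists held a region at 46 5′ ends (59.0%, beside 10.3% of all genes) and at 45 3′ ends (57.7%, beside 15.9%).

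The optimal list holds the 368 pooled regions that passed the authors' irreproducible discovery rate (IDR) threshold, which are also the 368 highest. Optimal summits lay at the 5′ end of 12 ribosomal protein genes (15.4%), beside 0.891% of all protein-coding genes, and at the 3′ end of 9 (11.5%), beside 1.31%. In all 18 genes had an optimal peak at an end (23.1%, beside 2.12% of all genes), from 21 different peaks. Of these, rpl-3, rpl-11.2 and rpl-20 had one at each end (3.85%, beside 0.0801%). No statistical test was made of these shares, since neighbouring genes share peaks and the group was chosen with results of these data known.

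**Figure D1:**
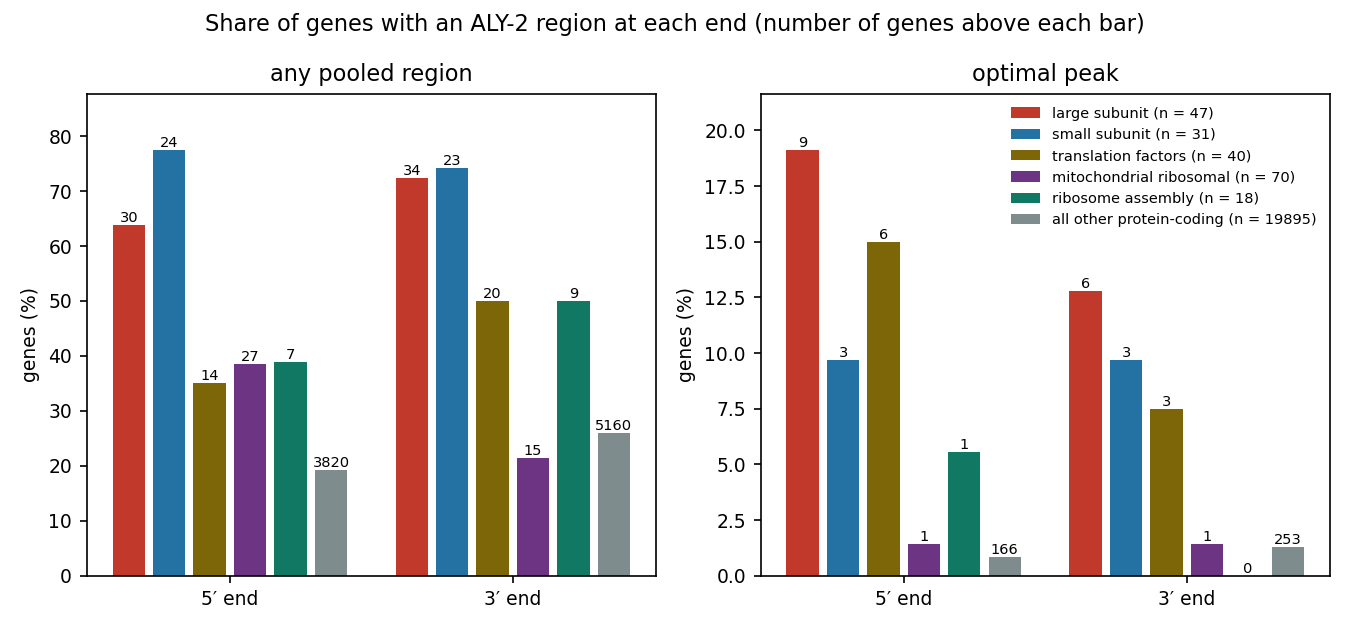
Percentage of genes (vertical axis) with any pooled region (left panel) or an optimal peak (right panel) within 500 bp of the 5′ and of the 3′ end, for large and small subunit genes, translation factors, mitochondrial ribosomal proteins, ribosome assembly genes and all other protein-coding genes; numbers above bars are genes. Both subunits stand at 63.8 to 77.4% in the left panel, and at 9.68 to 19.1% in the right panel.

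The 3 highest 5′ peaks were at large subunit genes, while the order of the subunits in regions of any height depended on the list. An optimal 5′ peak was found at 9 of 47 rpl genes (19.1%) and at 3 of 31 rps genes (9.68%), and an optimal 3′ peak at 6 rpl genes (12.8%) and 3 rps genes (9.68%). Pooled regions of any height were at the 5′ ends of 30 rpl genes (63.8%) and 24 rps genes (77.4%). In replicate 1 they were at 34 rpl genes (72.3%) and 19 rps genes (61.3%), in replicate 2 at 34 rpl genes (72.3%) and 24 rps genes (77.4%), and in all 3 lists at 29 rpl genes (61.7%) and 17 rps genes (54.8%). At 3′ ends the share was lower in rpl than in rps genes in each list, by a margin that varied. In the pooled list 34 rpl genes (72.3%) and 23 rps genes (74.2%) had a 3′ region, in replicate 1 31 rpl genes (66.0%) and 26 rps genes (83.9%), in replicate 2 36 rpl genes (76.6%) and 27 rps genes (87.1%), and in all 3 lists 24 rpl genes (51.1%) and 21 rps genes (67.7%). A rank of 1000 or better at the 5′ end was reached by 14 rpl genes (29.8%) and 9 rps genes (29.0%), together 29.5% of ribosomal protein genes beside 2.18% of all genes. At the 3′ end it was reached by 12 rpl genes (25.5%) and 8 rps genes (25.8%), together 25.6% beside 3.35% of all genes. Where a region was listed, the median pooled height at 5′ ends was 30.6 for rpl genes and 26.2 for rps genes, and at 3′ ends it was 28.1 for rpl and 27.3 for rps genes. The order at 5′ ends was the opposite in each replicate, with medians of 13.5 (rpl) and 15.1 (rps) in replicate 1 and 18.3 (rpl) and 18.7 (rps) in replicate 2. At 3′ ends the medians were 16.4 (rpl) and 13.1 (rps) in replicate 1 and 16.8 (rpl) and 14.2 (rps) in replicate 2.

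The difference between subunits in optimal 5′ peaks rested on few genes. In each replicate taken alone, 6 rpl genes (12.8%) and 3 rps genes (9.68%) had a 5′ region among its 368 highest, beside 0.666% of all genes in replicate 1 and 0.756% in replicate 2. At 3′ ends the order turned with the replicate. In replicate 1 a region among the 368 highest was at 4 rpl genes (8.51%) and 4 rps genes (12.9%), beside 1.23% of all genes. In replicate 2 it was at 7 rpl genes (14.9%) and 3 rps genes (9.68%), beside 1.24%.

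**Figure D2:**
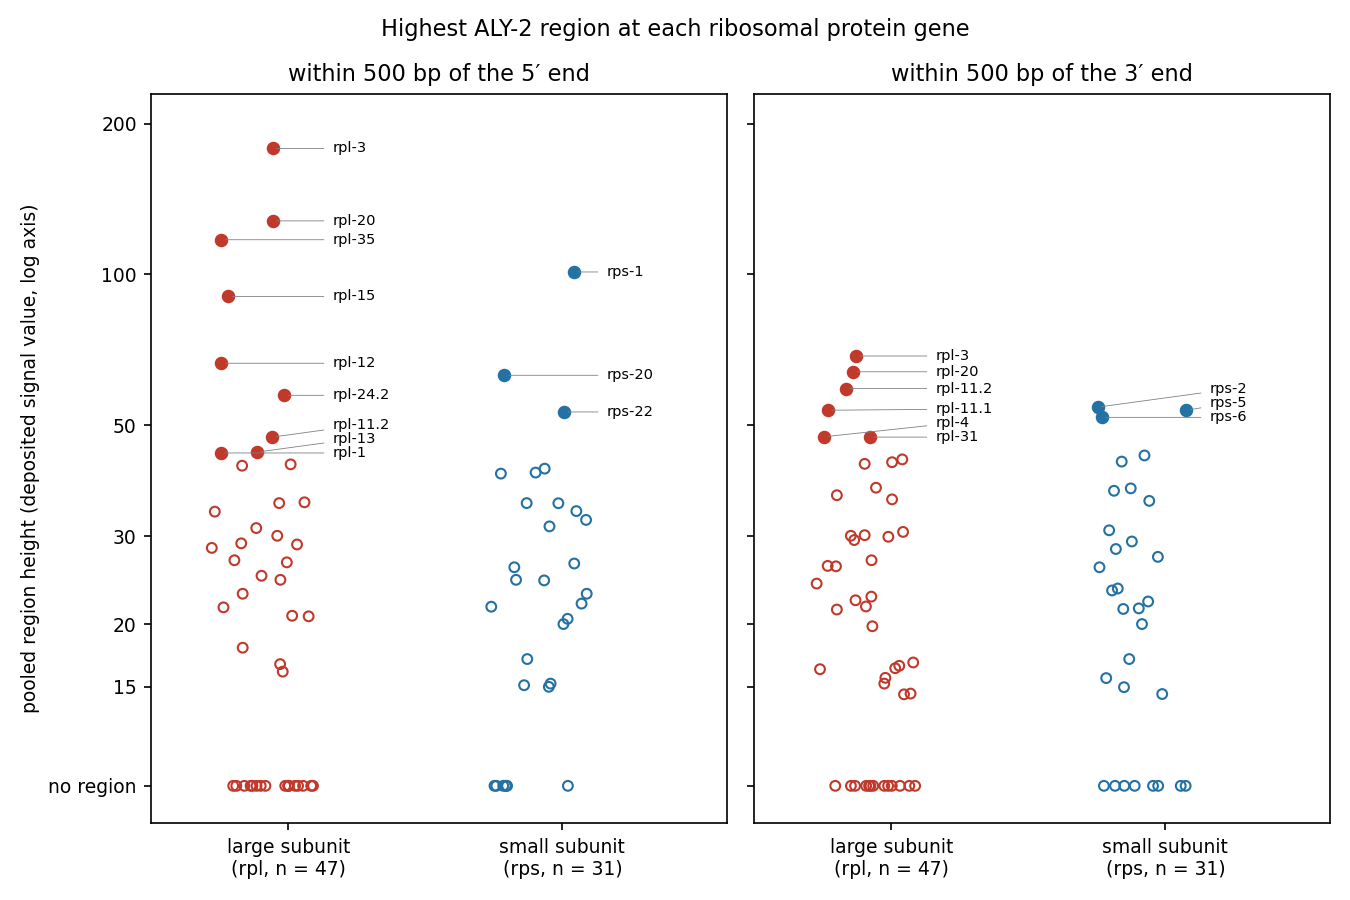
Height of the highest pooled region within 500 bp of the 5′ end (left) and 3′ end (right) of each ribosomal protein gene, on a log axis, for large and small subunit genes; filled points are optimal peaks, open points other regions, and the lowest row holds genes with no listed region. The 5′ heights reach 178.6 at rpl-3, and the 3′ heights reach 68.7, at the same gene.

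At large subunit 5′ ends the values spread over a wide range. The gene rpl-3 encodes a protein that reaches towards the peptidyl transferase centre. Its 5′ region (chrIII:3867458-3867656) had a height of 178.6 in the pooled list, 86.4 in replicate 1 and 98.3 in replicate 2, and ranked 1 in every list. The summit was 292 bp from rpl-3, and the 3′ end of acs-19 was also within 500 bp. The peak of rpl-20 (chrIV:4750031-4750142), in the 461 bp between this gene and the divergent Y17G9B.5, had 128.0 in the pooled list, 49.99 in replicate 1 and 84.4 in replicate 2. For rpl-35, whose protein sits at the exit of the peptide tunnel, the heights were 117.3 pooled (chrIII:7854490-7854885), 58.3 in replicate 1 and 54.9 in replicate 2. The ranks of these 3 genes were all within the first 34 of either replicate. The 5′ peak of rpl-15 (chrIV:654711-655106) had heights of 90.4 pooled, 42.0 in replicate 1 and 49.0 in replicate 2. That of rpl-12, which encodes a protein at the base of the ribosomal stalk (chrIV:13240518-13240913), had 66.4 pooled, 33.4 in replicate 1 and 33.3 in replicate 2. Both genes were among the 368 highest regions of each replicate.

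The remaining optimal 5′ peaks of the large subunit were lower, and in none of them did both replicates rank within the first 368. The gene rpl-24.2 resembles the gene of an assembly factor known from yeast and human cells, and its replicates differed most. Its height was 57.3 in the pooled list (chrI:9669080-9669475), 9.89 in replicate 1 with rank 12864, and 46.1 in replicate 2 with rank 55. The summit also lay inside another gene, C03D6.1. For rpl-11.2 (chrX:2242831-2243226, pooled 47.3) the order was the opposite, with 26.2 and rank 220 in replicate 1 and 16.9 and rank 1937 in replicate 2. The peaks of rpl-13 (chrI:3787516-3787911, 44.1) and rpl-1 (chrI:2876540-2876935, 44.0), whose protein forms a mobile stalk of the large subunit, stood just above the lowest optimal height of 43.6. The ranks of rpl-13 were 2084 in replicate 1 and 403 in replicate 2, and those of rpl-1 were 544 and 897.

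Among small subunit genes, rps-1 had the highest 5′ peak (chrIII:4475441-4475836). It had heights of 101.1 pooled, 45.9 in replicate 1 and 48.5 in replicate 2. The summit was at -279 bp from rps-1, within the noncoding genes F56F3.10 and F56F3.11. The peak at rps-20 (chrI:14469119-14469514) had 62.9 pooled, 33.2 in replicate 1 and 28.8 in replicate 2, and its summit was nearer to the divergent ekl-4 (183 bp) than to rps-20 (at -214 bp). That of rps-22 (chrIII:1950191-1950586) had 53.1 pooled, 30.1 in replicate 1 and 22.3 in replicate 2, where it ranked 721. It lay between rps-22 and the divergent polh-1, whose 5′ end was 120 bp from the summit.

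At 3′ ends the heights were closer together. The 9 optimal 3′ peaks ranged from 47.3 to 68.7 with a median of 53.5, against 44.0 to 178.6 and a median of 64.7 for the 12 optimal 5′ peaks. The 3′ peak of rpl-3 (chrIII:3869530-3869925) was the highest of them, with 68.7 pooled, 39.0 in replicate 1 and 42.2 in replicate 2. Its summit also lay 138 bp inside tir-1, a convergent gene. The 3′ peak of rpl-11.1 (chrV:3584893-3585288) had 53.5 pooled, 25.7 in replicate 1 and 29.7 in replicate 2. Only these 2 of the 9 were among the 368 highest in both replicates (2.56% of ribosomal protein genes, beside 0.466% of all genes). At 5′ ends 7 genes were (8.97%, beside 0.34%), namely rpl-3, rpl-12, rpl-15, rpl-20, rpl-35, rps-1 and rps-20.

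Of the other 3′ peaks, rps-2, which encodes a protein near the mRNA entry channel, had a pooled height of 54.3 (chrIV:7924997-7925392), with rank 68 in replicate 1 and rank 996 in replicate 2. For rps-5 (chrIV:11109563-11109958, 53.5) the ranks were 149 in replicate 1 and 384 in replicate 2, and for rps-6, whose protein is phosphorylated in response to growth signals in mammals (chrI:13953313-13953708, 51.8), 552 in replicate 1 and 166 in replicate 2. The 3′ peak of rpl-20 (chrIV:4748572-4748967, 63.9) had ranks of 490 in replicate 1 and 107 in replicate 2, and its summit lay within the downstream gene cyc-2.1. That of rpl-11.2 (chrX:2241373-2241768, 59.2) ranked 97 in replicate 1 and 650 in replicate 2. The peaks of rpl-4 (chrI:4645341-4645736, 47.4), whose protein lines the peptide tunnel, and rpl-31 (chrI:13652449-13652844, 47.3) stood lowest. In replicate 1 they held rank 202 (rpl-4) and rank 1742 (rpl-31), and in replicate 2 rank 1059 (rpl-4) and rank 298 (rpl-31).

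**Figure D3:**
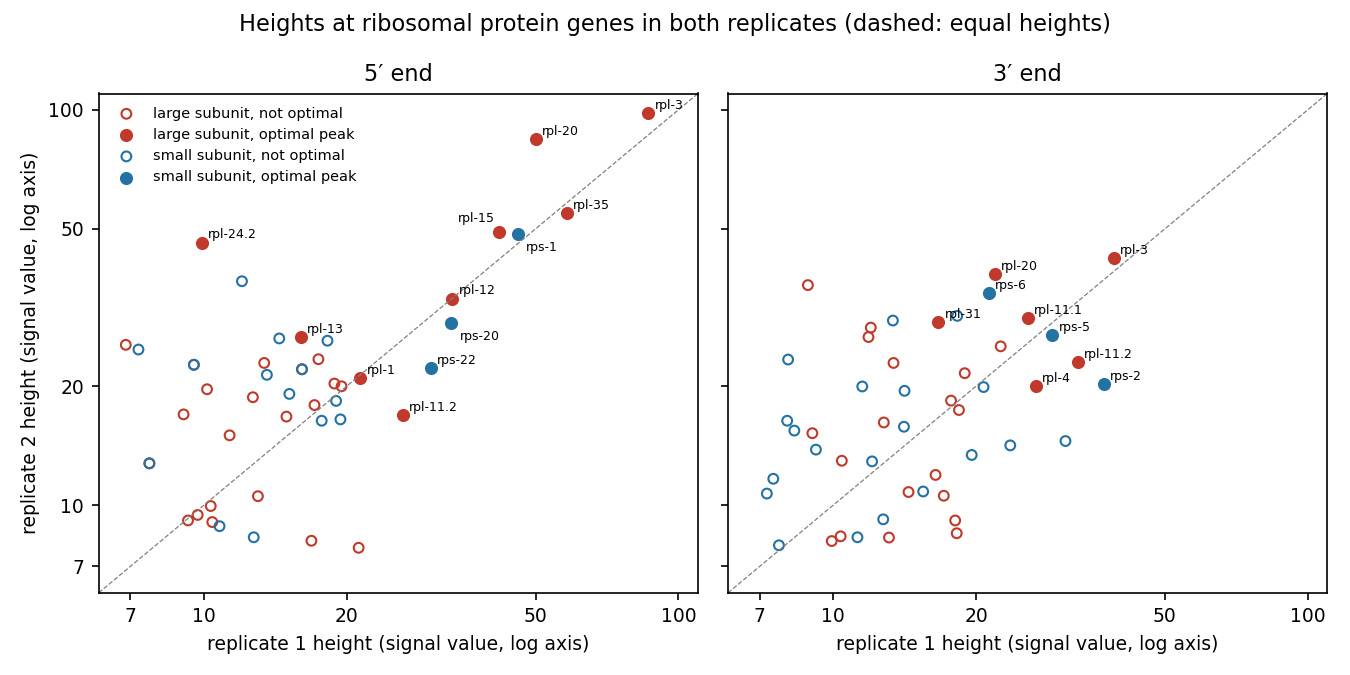
Height of the highest region at each ribosomal protein gene in replicate 1 (horizontal) and replicate 2 (vertical), both on log axes, for the 47 genes with a 5′ region and the 48 with a 3′ region in both replicates; filled points are optimal peaks of the pooled list. The 7 genes that rank within the first 368 in both replicates at 5′ ends lie near the dashed line of equal heights, except rpl-20, while rpl-24.2 lies far above it.

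Across the 47 genes with a 5′ region in both replicates the heights had a Spearman rho of 0.39 and a Pearson r of 0.83, and across the 48 genes with a 3′ region in both they had a rho of 0.40 and an r of 0.42. For the 2511 other protein-coding genes with a 5′ region in both replicates, rho was 0.35 and r 0.61. At 3′ ends the r of ribosomal protein genes was below that of the 3681 other genes, for which rho was 0.38 and r 0.57. These are correlations across genes, which share regions and libraries and are not independent replicates. Replicate summits lay within 200 bp of each other at 38 of 47 5′ ends (80.9%, beside 61.9% of other genes), and at 34 of 48 3′ ends (70.8%, beside 59.5%). In rpl genes the share was about the same at both ends, with 25 of 30 5′ ends (83.3%) and 21 of 25 3′ ends (84.0%), and in rps genes it was 13 of 17 5′ ends (76.5%) and 13 of 23 3′ ends (56.5%).

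Most summits lay outside the ribosomal protein gene itself, and those at 5′ ends lay farther upstream than at other genes. The median summit of the 54 ribosomal protein genes with a pooled 5′ region was at -277.5 bp, that is upstream, against -92 bp for other genes. It was upstream of the annotated end at 46 of them (85.2%), against 61.4% of other genes with a region. All 12 optimal 5′ summits were upstream, between 65 bp (rpl-12) and 446 bp (rpl-35), against 74.1% of the 166 other genes with such a peak. At 3′ ends the median was 203 bp beyond the annotated end, against 116 bp for other genes, and 48 of 57 lay beyond it (84.2%, against 65.4%). All 9 optimal 3′ summits lay beyond the end, at 103 bp (rps-2) to 396 bp (rps-5). Those of rpl-3, rpl-20, rps-5 and rpl-4 were within another protein-coding gene, namely tir-1, cyc-2.1, pigk-1 and lmd-2 in that order. The position was similar in both subunits, with median 5′ summits at -287 bp in rpl and -251 bp in rps genes. In replicate 1 alone the median 5′ summit was at -254 bp, and in replicate 2 at -270 bp.

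**Figure D4:**
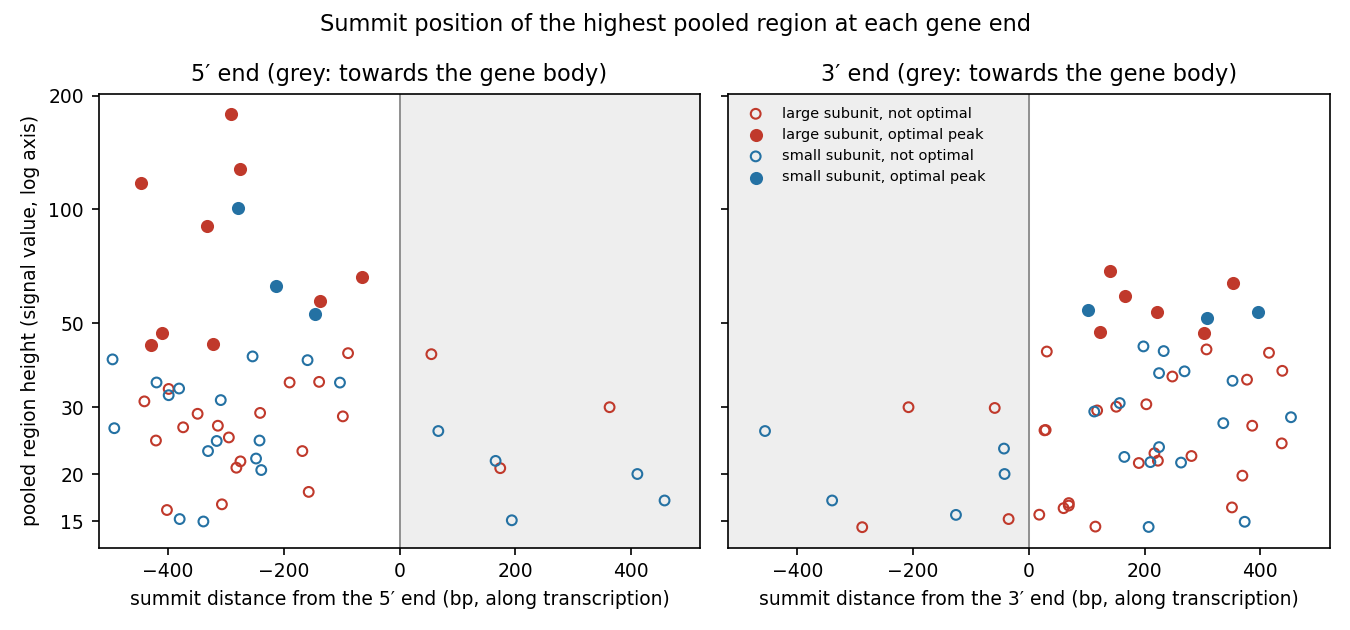
Distance of the summit from the annotated 5′ end (left) and 3′ end (right) in bp along transcription, against pooled height on a log axis, for every ribosomal protein gene with a region there; grey marks the side of the gene body and filled points are optimal peaks. All optimal peaks are on the white side, outside the gene, and the 12 at 5′ ends lie 65 to 446 bp upstream.

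The structure of these genes bears on how summits are assigned. Ribosomal protein genes had a median length of 753.5 bp (276 to 1734 bp), against 2033 bp for other protein-coding genes. The median gap to the next protein-coding gene was 570 bp upstream and 233.5 bp downstream, against 1162 and 1103 bp for other genes. The same pooled region was within reach of both ends in 4 genes (5.13%, beside 0.861% of all genes), rpl-38, rps-16, rps-18 and rps-21. Of the 12 optimal 5′ summits, 6 lay nearer to an end of another gene, those of rpl-1, rpl-11.2, rpl-13, rpl-20, rps-20 and rps-22, and at 3′ ends 5 of 9 did, those of rpl-3, rpl-4, rpl-11.1, rpl-20 and rps-5.

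Some ribosomal protein genes shared a region with each other. The divergent pairs rpl-24.1 and rps-10 (gap 609 bp), rpl-36 and rps-14 (662 bp) and rpl-39 and rps-30 (498 bp) each join a large and a small subunit gene across one intergenic stretch. Their common 5′ regions had pooled heights of 34.9, 24.5 and 23.0, and none was an optimal peak. The tandem genes rpl-41.1 and rpl-41.2 shared the region between them, with a height of 26.8. A divergent upstream neighbour was found at 53 of the 78 genes, of which 35 had a pooled 5′ region (66.0%, beside 18.9% of all such genes) and 8 an optimal one (15.1%, beside 1.01%). Of the 25 with a tandem upstream neighbour, 19 had a region (76.0%, beside 19.8%) and 4 an optimal one, beside 0.789%.

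Paralogous genes both had a listed region at some ends and differed at others. Both rpl-11 genes, whose protein belongs to the large subunit's central protuberance, had an optimal 3′ peak, 53.5 high at rpl-11.1 and 59.2 at rpl-11.2. At the 5′ end rpl-11.2 had an optimal peak, and rpl-11.1 had no region in any of the 3 lists. The 3′ summit of rpl-11.1 lay nearer to the 3′ end of pygl-1 (49 bp) than to rpl-11.1 (221 bp). Likewise, the 5′ summit of rpl-11.2 lay nearer to the 3′ end of AH9.1 (202 bp) than to rpl-11.2 (411 bp). Of the rpl-25 genes, rpl-25.1 had a 5′ region of 41.5, 55 bp inside the gene, and rpl-25.2 one of 28.4, at -98 bp, and neither was optimal. The 5′ regions of rpl-24.1 (34.9) and rpl-24.2 (57.3) had summits at -190 bp (rpl-24.1) and -137 bp (rpl-24.2). The genes rpl-41.1 and rpl-41.2 had 5′ regions of 26.6 and 26.8. Some other genes share only a number in their name and are not taken as paralogs here. Of these, rpl-7 had a 5′ region of 31.1 and rpl-7A one of 41.7, and rpl-36 had one of 24.5 and rpl-36.A one of 20.7. How reads that match more than 1 copy were treated is not stated in the sources used here.

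By chromosome, the counts were small, and shares of all protein-coding genes varied as well, so no difference between chromosomes was tested. An optimal 5′ peak was at 4 of 23 ribosomal protein genes on chromosome I (17.4%, beside 1.6% of all genes there), 4 of 18 on III (22.2%, beside 1.44%), 3 of 17 on IV (17.6%, beside 1.07%) and 1 of 2 on X (beside 0.22%). None of the 10 on chromosome II (beside 0.87%) and none of the 8 on V (beside 0.461%) had one. An optimal 3′ peak was at 3 genes on I (13.0%, beside 2.05%), 1 on III (5.56%, beside 2.01%), 3 on IV (17.6%, beside 1.77%), 1 on V (12.5%, beside 0.741%) and 1 on X (beside 0.842%), and at none on II (beside 0.928%). On II, where 9 of the 10 genes encode large subunit proteins, 4 had a pooled 5′ region (40.0%, beside 18.3%) and 6 a 3′ region (60.0%, beside 24.0%).

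Ribosomal protein genes without an optimal peak filled the range below the threshold. The highest were the 3′ regions of rps-4 (43.5, rank 374), rpl-6 (42.7, rank 412), rps-13 (42.3, rank 430) and rpl-7 (42.1, rank 435). That of rpl-6 held rank 426 in replicate 1 and rank 482 in replicate 2. The remaining 3 were uneven, with ranks of 4487 (rps-4), 111 (rps-13) and 17178 (rpl-7) in replicate 1, and ranks of 288 (rps-4), 3339 (rps-13) and 139 (rpl-7) in replicate 2. A rank of 5000 or better was reached by 43 genes at the 5′ end (55.1%, beside 7.49% of all genes) and by 43 at the 3′ end (55.1%, beside 11.5%). Of the 11 genes with no pooled region at either end, 8 were rpl genes and 3 rps genes. In rpl-28, rpl-33 and rpl-42, named after their values were seen, neither replicate listed a region at either end.

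The rest of the protein synthesis machinery was described in the same way. The 5 ribosomal protein genes with other names, rla-0, rla-1, rla-2, ubl-1 and ubq-2, had no optimal peak at an end, and 3 had a pooled 5′ region and 5 a 3′ region. Translation factors had an optimal 5′ peak at 6 of 40 genes and a 3′ peak at 3 of 40, the highest at the 3′ end of eef-2, elongation factor 2 (116.4). The 5′ share was about that of ribosomal protein genes (15.4%), and the 3′ share was below theirs (11.5%). At either end 8 of the 40 had one, a share slightly below the 23.1% of ribosomal protein genes. All 3 shares were above those of all genes (0.891% at 5′ ends, 1.31% at 3′ ends and 2.12% at either). Pooled regions were at 14 of their 5′ ends and 20 of their 3′ ends. These shares were below those of ribosomal protein genes (69.2 and 73.1%) and above those of all genes (19.4 and 26.1%). Of 70 mitochondrial ribosomal protein genes, mrps-7 had an optimal 5′ peak (45.1) and mrpl-40 a 3′ peak (50.8). Each is 1.43% of the group, near the 0.891% (5′) and 1.31% (3′) of all genes. Pooled regions were at 27 5′ ends of the group (38.6%, beside 19.4% of all genes) and 15 3′ ends (21.4%, below the 26.1% of all genes). Of 18 nucleolar and ribosome assembly genes, pro-1 had an optimal 5′ peak (49.1) and none had a 3′ peak. At the annotated aly-2 gene, no region was listed at the 5′ end in any list, and the 3′ region had a height of 39.6 (rank 539). The tagged insertion was not examined separately.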

How the data were processed

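ChIP-seq regions from 2 biological replicates of 1 group were used. Per the accompanying records, the authors deposited relaxed lists of peaks and background on ce11 for each replicate and for both pooled, each made with 1 further file whose role is not stated, and an optimal list at the IDR threshold. The deposited signal value of each region (column 7) was used as its height to rank and describe regions within a list; the sources used here give no scaling, aligner or peak caller. The lists held 30000 (replicate 1), 26751 (replicate 2), 17335 (pooled) and 368 (optimal) regions. No read counts were used, so depth is unknown. Lists on ce10 were not used.

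Gene ends came from the gene records of Ensembl release 115 (WBcel235, the same assembly as ce11), without 12 mitochondrial genes, and no ce11 region reached past a chromosome end. For each end the highest region with its summit within 500 bp was taken, with Python 3.11.15 and pandas 2.3.3, after the step was checked against an exhaustive search on made-up regions. Words of 6 bases were counted on both strands. The ribosomal protein genes, other lists and alternatives were chosen with earlier results of these data known. Genes named were ribosomal protein genes with an optimal peak at an end and the 4 highest without one. Also named were genes that share a number in their name, aly-2, and up to 3 genes with an optimal peak of each other list. Genes that share a region, or whose region is reached from both ends, were picked with their values in view. The 4 words in capitals were chosen after the sequences were seen, as was the comparison of their shares. No p-values were computed, since 1 group of 2 replicates has no contrast between conditions and genes are not replicates.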

Additional observations from a re-analysis of the deposited data

How the results depend on the processing

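Counts of ribosomal protein genes with a pooled region or an optimal peak stayed within 1.5 times those reported with a window of 1000 bp, with coding ends, with only the regions above the median of each list and with the 5 genes under other names. They fell where the rule asked for closeness. Optimal 5′ peaks were at 4 genes with a window of 250 bp (0.523% of other genes), at 3 where the region itself had to overlap the end (0.402%) and at 6 when a summit counted only for its nearest gene (0.513%). Optimal 3′ peaks were at 5, 4 and 4 genes under these 3 settings (0.844, 0.598 and 0.754% of other genes), pooled 5′ regions at 22, 17 and 34 genes (10.9, 8.76 and 14.9% of other genes), and pooled 3′ regions at 37, 26 and 30 (16.2, 12.8 and 18.2%). The pooled 5′ summits had their median at -277.5 bp, outside a window of 250 bp.

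The difference between subunits in optimal 5′ peaks, 9.47 percentage points more rpl than rps genes, reversed to -2.2 points with a window of 250 bp. It was 8.37 with 1000 bp, 1.03 with overlap, 7.41 with the nearest gene only, 6.31 above the median height, 8.27 with the 5 added genes and 3.09 with either replicate left out. The 3′ difference of 3.09 points reversed to -2.2 with the nearest gene only, and ranged from -4.39 to 5.22 with a replicate left out; the cause was not tested. Without replicate 1, an optimal-like region was at 9 5′ ends (0.714% of other genes) and 10 3′ ends (1.2%). Without replicate 2 it was at 9 5′ ends (0.623%) and 8 3′ ends (1.19%). A pooled-like region was at 58 5′ ends (27.1% of other genes) and 63 3′ ends (33.4%) without replicate 1. Without replicate 2 it was at 53 (29.7%) and 57 (35.9%). These shares of other genes were above the 19.2 and 25.9% of the pooled list. Of the 21 optimal gene ends, 13 were among the 368 highest without replicate 1 and 15 without replicate 2. No paired analysis was possible because there is only 1 group. Depth is unknown, so a gene without a listed region is not shown to lack binding.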
